A study of Macaca mulatta with 11 samples.

Results

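CpG-rich stretches of the macaque genome that were heavily methylated in the prefrontal cortex numbered 2335, out of 21259 regions with at least 40 measured CpG positions and 262618 regions of any size. To find them, measured positions at most 200 bp apart on a chromosome were joined and the runs were split every 1000 bp. A region with 40 or more positions was taken when its pooled level, the methylated share of all reads summed over the animals, was above 80%. They are called the methylated CpG-rich regions here, and the 15360 regions with 40 or more positions under 20% are called the unmethylated ones. The level chose both groups, so it is described and not tested. Whether the regions meet a sequence definition of a CpG island was not checked.

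The tissue was area 46 of the prefrontal cortex of 11 rhesus macaques (Macaca mulatta), 2 of cohort 10 and 9 of cohort 14. By the labels, it was taken before any animal had drunk alcohol, so there is no treated group, and the animals differ by cohort, age (5.02 to 5.44) and an ethanol value for 6 months (1.69 to 4.31), both without a stated unit. Ages were 5.02 and 5.08 in cohort 10 and 5.18 to 5.44 in cohort 14, which means that a cohort difference and an age difference cannot be told apart. The labels used here give no sex and no genotype. The libraries were bisulfite libraries enriched with probes designed on the human genome, so a CpG-rich region of the macaque that such probes do not catch is not counted. The tissue is bulk cortex, so a level that differs because cells of a type are fewer and one that differs within cells cannot be told apart, and counts at CpG positions hold no cell type markers to check the labelled tissue by.

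CpG islands are stretches of dense CpG that often hold promoters and are, as a rule, free of methylation in adult tissue. DNA methyltransferases keep a minority of CpG-dense sequence methylated, among them islands inside genes, promoters of germline genes that are silent in the body, tandem repeats and sequence near chromosome ends. In a CpG that stays methylated, deamination of the methylated cytosine tends to erode the CpG over evolution, so dense methylated CpG is the exception in mammalian genomes.

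The CpG-rich regions formed a large group of low level and a small one of high level. Of the 21259 regions, 72.3% were under 20%, 16.8% between 20% and 80%, and 10.98% above 80%. The methylated ones had a median level of 90.9%, with 58.2% of them above 90% and 7.37% above 95%, up to 97.0%. They held 127533 positions, 4.09% of all measured. The boundary of 80% did not fall in a gap: 139 regions were at 77.5% to 80% and 166 at 80% to 82.5%. The first 4 regions inside it were at 80.01% to 80.08% and the first 4 outside at 79.97% to just under 80%. Animals lay on both sides of 80% in each of these 8.

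**Figure D1:**
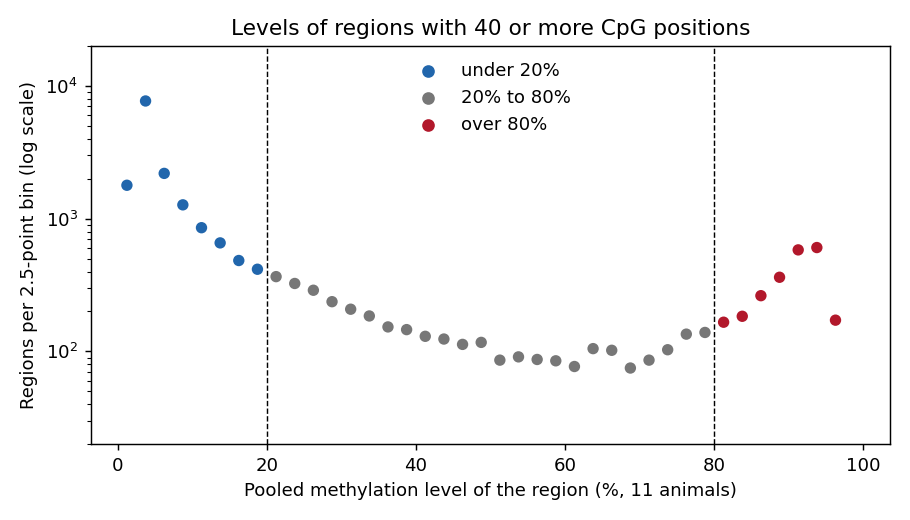
Number of regions with 40 or more CpG positions (vertical axis, log scale) by pooled methylation level over 11 animals (horizontal axis, %), in bins of 2.5 points. Points mark bins under 20%, from 20% to 80% and above 80%, and the dashed lines mark 20% and 80%. The fullest bin, from 2.5% to 5%, holds 7699 regions and the fullest high bin, from 92.5% to 95%, holds 606.

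Most methylated regions were above 80% in every animal, which the rule favours because it pooled the reads of these same animals. Of the 2335 regions, 1999 (85.6%) were above 80% in each of the 11 animals, and 0 were under 50% in any. In single animals, 2217 to 2282 of the 2335 were above 80%. The mean level over the methylated regions was lowest at 89.7%, with a median of 89.9% and a highest of 90.4% over animals. The animals were therefore within 1 point of each other in this mean.

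Within a methylated region almost every CpG was methylated. Of the 127533 positions, 32.0% had a pooled level above 95%, 55.1% from 80% to 95%, 11.6% from 50% to 80%, and 1.30% under 50%. In 62.6% of the regions no position was under 50%. Where a position was, it usually stood alone: 66.3% of the 1653 such positions had both neighbours at or above 50%. In the unmethylated regions 1.11% of positions were above 50%, of which 16.9% stood alone. Positions with 1 animal under 20% and another above 80% made up 1.82% of positions in the methylated regions and 0.0767% in the unmethylated ones. Sequence variants at the positions were not analysed here.

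The level hardly changed from the edge of a methylated stretch to its middle. Positions within 50 bp of the edge of a run of measured positions had a mean level of 86.5%, those at 50 to 100 bp 88.9%, and those at 200 to 500 bp 89.7%. Edges were also read less deeply, with 97.2 reads per position within 50 bp against 250.04 at 200 to 500 bp. In the unmethylated regions the level was 12.2% within 50 bp of an edge, 8.24% at 50 to 100 bp and 4.97% at 200 to 500 bp.

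Many of the methylated regions made up a whole run of measured positions, and the others were parts of longer runs. A run ends where the next measured position is too far away to be joined. Its ends therefore need not be those of the CpG-dense sequence, and whether a region is part of a larger island was not tested. A single region made up its entire run in 987 cases (42.3%). The others had 1289 adjoining stretches with at least 5 positions, of which 79.8% were above 80% too, 16.3% were from 50% to 80%, 2.95% from 20% to 50% and 0.931% under 20%. Methylated regions with gaps of at most 1000 bp formed 195 chains of 2 or more, holding 433 regions, and 1902 stood alone. The longest chain ran over 8974 bp of chromosome 8, from 144186194 to 144195167, with 9 regions and 649 positions. Its level was 92.1% in the lowest animal, 92.8% at the median and 94.01% in the highest. The next, of 6 regions, lay on chromosome 10 from 98787988 to 98793951 and had 91.7%, 92.2% and 93.4%. One of 5 regions on chromosome 5, from 1858358 to 1864248, was lower and more spread, at 84.04%, 86.8% and 89.2%. All 3 chains lay within 2 Mb of a chromosome end.

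Methylated regions were concentrated toward chromosome ends. Of the 2335, 48.4% lay within 5 Mb of the first or last measured position of their chromosome (95% exact binomial interval 46.3% to 50.4%, counting error only), against 13.0% of the unmethylated regions, 27.9% of those in between and 19.4% of all CpG-rich regions. Regions of 5 to 39 positions above 80%, with a median of 9 positions, had 27.3% there. The share did not rise steadily with the number of positions. It was 48.7% for the 4898 regions of 30 or more positions above 80%, which include the 2335, and 42.3% with 60 or more. The median distance to an end was 5.87 Mb for the methylated and 28.6 Mb for the unmethylated regions. Regions are not independent samples, and no test was made of these shares.

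The share of CpG-rich regions that were methylated was lower at each step away from the end. It was 33.2% (400 of 1205) in the outermost 1 Mb, 31.2% from 1 to 2 Mb and 21.02% from 2 to 5 Mb. Farther in it was 11.7% from 5 to 10 Mb, 8.38% from 10 to 20 Mb and 5.85% (695 of 11883) beyond 20 Mb. Unmethylated regions went the other way, from 42.6% of CpG-rich regions in the outermost 1 Mb to 79.8% beyond 20 Mb. Chosen from each animal's own levels, the regions above 80% had 47.9% to 48.7% within 5 Mb of an end. These sets were largely the same regions, since 2217 to 2282 of the 2335 were above 80% in single animals. Their near-equal shares follow from this overlap and are not separate support. The most methylated regions were the least terminal, with 28.5% of those above 95% within 5 Mb of an end, against 45.4% at 90% to 95%, 56% at 85% to 90% and 54.9% at 80% to 85%.

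**Figure D2:**
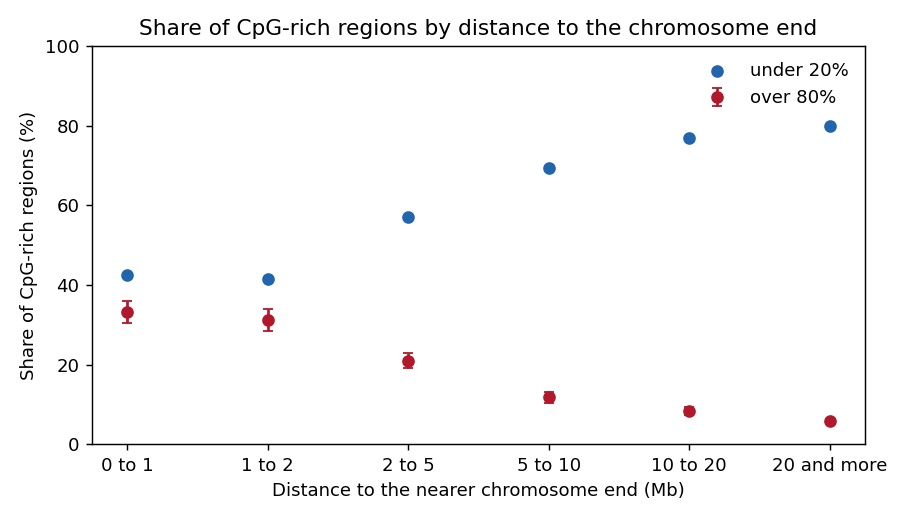
Share of CpG-rich regions (vertical axis, %) that were above 80% or under 20% methylated, by distance to the nearer chromosome end in Mb (horizontal axis). Bars are exact 95% binomial intervals for the share above 80%, which goes from 33.2% in the outermost 1 Mb to 5.85% beyond 20 Mb.

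On every chromosome the methylated regions lay near an end more often than the unmethylated ones, but the ends were filled unequally. The share within 5 Mb of an end was the larger in the methylated regions on 20 of 20 chromosomes. Chromosome 17 had 74% against 23.6% and chromosome 18 had 70.5% against 23.4%. On chromosome 2 the shares were nearly equal, 4.84% against 4.29%. Of the 40 ends, 39 held at least 1 methylated region within 5 Mb, and the 10 fullest held 612 of the 1130. The low-coordinate end of chromosome 19 held 108 of 294 CpG-rich regions, that of chromosome 20 held 72 of 295, and the high-coordinate end of chromosome 1 held 71 of 203. The high-coordinate end of chromosome 2 held 0 of 4, so few CpG-rich regions were measured there at all.

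Chromosomes also differed in how much of their dense CpG was methylated. Chromosome 19 had the largest share, 18.3% of 1628 CpG-rich regions, and 51.1 methylated regions per 10 Mb. Chromosome 20 followed with 16.7% and 22.7 per 10 Mb, then chromosome 3 with 15.5% and 11.8 per 10 Mb. Chromosome 2 had the smallest, 5.91% of 1049 and 3.16 per 10 Mb. More than 5 Mb from an end, chromosomes 19 and 3 still stood highest at 13.8% and 13.6%, chromosome 20 had 9.5%, and the lowest was chromosome 12 at 4.06%.

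A few windows of 1 Mb held much of the group. Of 2264 windows with a CpG-rich region, 801 held a methylated one, and 51 held 10 or more, which together had 870 (37.3%). The share of all CpG-rich regions in these 51 windows was not computed. Crowding of methylated regions is therefore not told apart from crowding of dense CpG of every level. The fullest window began at 144 Mb of chromosome 8, with 38 methylated and 36 unmethylated of 94 CpG-rich regions. The first 1 Mb of chromosome 19 came next with 36 and 24 of 84. An exception to the pattern at the ends lay on chromosome 3, where the windows beginning at 33, 34 and 35 Mb held 13, 27 and 17 methylated regions beside 13, 23 and 13 unmethylated ones. These lie more than 30 Mb from an end of the chromosome. Of the 51 windows, 8 lay more than 5 Mb from an end.

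Methylated regions seldom adjoined an unmethylated one and, among CpG-rich regions, lay farthest from the nearest. The median gap from a methylated region to the nearest unmethylated one was 30.6 kb, with 25% under 12 kb and 25% over 80.4 kb. Only 30 (1.28%) lay within 1 kb and 228 (9.76%) within 5 kb, while 79.4% lay within 100 kb. Regions with levels in between lay nearer, with 35.9% within 5 kb. An unmethylated region had another one within 5 kb in 47.5% of cases, where stretches split from a single run count as neighbours. The median gap between unmethylated regions was 7.21 kb.

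The 3 pairs with the shortest gaps, of the 30 within 1 kb, are described by the mean level of each region, which does not show how the level changes across the gap. On chromosome 4, 48 positions from 352124 to 353120 were at 75.1% in the lowest animal, 82.4% at the median and 85.4% in the highest. The 102 positions that end 8 bp before them, from 351121 to 352116, were at 3.54%, 4.60% and 5.82%. The 2 sets of 11 levels did not overlap, but the limits of 80% and 20% on the pooled levels had chosen them apart. On chromosome 3, 51 positions from 71071741 to 71072740 were at 77.8%, 82.1% and 84.2%, and the 70 positions beginning 10 bp after them were at 5.34%, 6.74% and 9.06%. On chromosome 1, 40 positions from 197901908 to 197902889 were at 85.2%, 90.97% and 91.9%, and 75 positions ending 26 bp before them were at 3.01%, 3.82% and 5.29%. In each of the 3 cases the pair belonged to a single run of measured positions that was split at 1000 bp, and the split sets where the boundary between the pair is drawn.

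At the other extreme, some methylated regions had no unmethylated CpG-rich region for megabases. On chromosome 6, 65 positions from 23666807 to 23667788 were 6.20 Mb from the nearest, with levels of 86.7%, 88.9% and 91.2% in the lowest, the median and the highest animal. On chromosome 2, 45 positions from 68474887 to 68475491 were 4.45 Mb away, at 86.3%, 88.7% and 93.1%. On chromosome 4, 47 positions from 106941725 to 106942277 were 2.20 Mb away, at 93.5%, 95.1% and 95.9%. All 3 lay more than 20 Mb from a chromosome end.

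The spacing of CpGs differed between the groups, a feature that the level did not choose. A methylated region had a median of 50 positions and 5.84 per 100 bp, an unmethylated one 58 and 6.77. Positions exactly 2 bp apart, as in the sequence CGCG, made up 5.88% of spacings in the methylated and 10.1% in the unmethylated regions. Positions 1 bp apart, which is how the C and the G of a CpG lie, made up 6.45% and 2.66%. Such pairs occurred in 19.6% of methylated and 14.4% of unmethylated regions, and the levels of a pair differed by a median of 2.04 points in the methylated ones. Each position of a pair was counted, so a region with pairs reaches 40 positions with fewer CpGs.

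Some methylated regions carried CpGs at a repeating distance, as in a tandem repeat, a sequence copied head to tail. A region was called repeated when, at its best distance from 5 to 150 bp, at least 50% of positions were followed by another exactly that far on. This held for 32 of the methylated regions (1.37%), 4 of the unmethylated (0.0260%) and 7 of those in between (0.196%). The distances ran from 12 to 117 bp with a median of 51 bp, and 27 of the 32 lay within 5 Mb of a chromosome end. No test was made of these counts, and the sequence itself was not used here.

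The clearest repeat lay on chromosome 10 from 99262737 to 99263721, where 79.6% of positions were followed by another 52 bp on. Its 55 positions were at 90.1%, 92.6% and 93.99% in the lowest, the median and the highest animal. On chromosome 3, 65 positions from 183773219 to 183774210 repeated at 117 bp and were at 70.7%, 79.9% and 90.6%. This region spread far more between animals than the first. On chromosome 15, 54 positions from 1649149 to 1649790 repeated at 116 bp and were at 84.1%, 89.04% and 92.5%. Reads from a repeat are harder to place on the right copy, and their placement was not checked here.

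The 6 methylated regions with most positions are ranked by measured positions. Since the C and the G of a CpG can each be counted, these are not counts of CpGs. On chromosome 19, 187 positions from 56405096 to 56406091 had levels of 84.7%, 90.5% and 94.3%. On chromosome 20, 162 positions from 28195135 to 28196119 were nearly alike in all animals, at 94.2%, 94.8% and 95.2%. On chromosome 10, 148 positions from 32487268 to 32488260 were at 86.3%, 89.8% and 91.2%. The other 3 of the 6, 2 on chromosome 3 and 1 on chromosome 20, held 128 to 132 positions. Their median levels were 85.02% to 90.3%. Of the 6, 4 lay more than 20 Mb from a chromosome end.

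**Figure D3:**
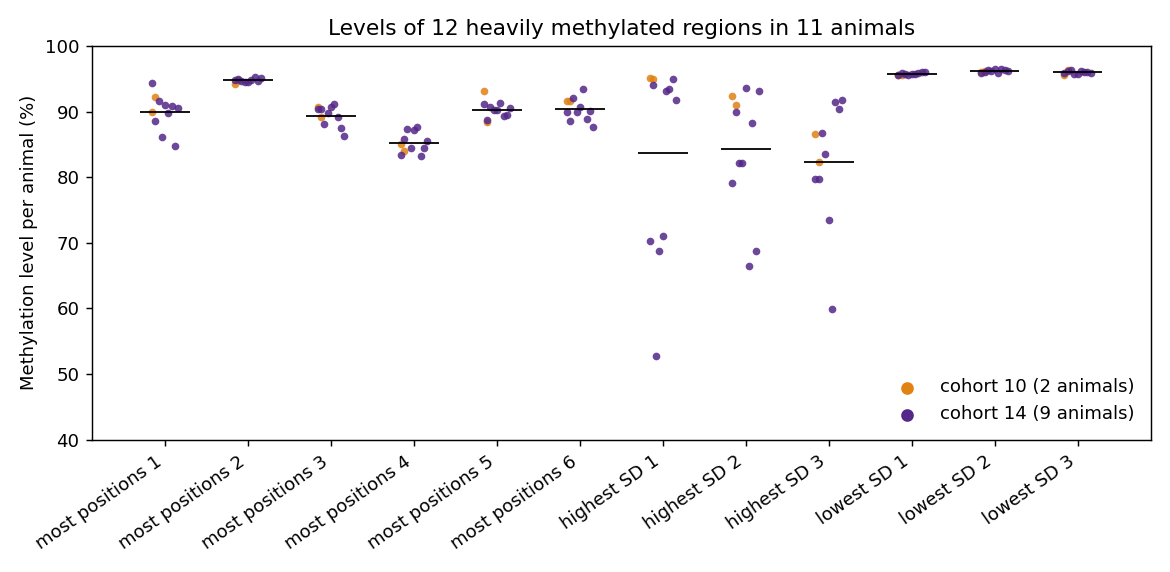
Methylation level in each of 11 animals (vertical axis, %, from 40 to 100) for the 6 methylated regions with most positions, the 3 with the highest SD between animals and the 3 with the lowest. Points are animals, coloured by cohort, and lines are means. Levels in the 3 regions of highest SD run down to 52.7%, 66.4% and 59.9%, while the 3 of lowest SD stay within 1 point.

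Averaged over positions, methylated regions were read more deeply than unmethylated ones in every animal. Libraries held 479979855 to 934657900 reads counted over positions. Mean reads per position were 168 to 328 in the methylated and 144 to 266 in the unmethylated regions, and the ratio within an animal was 1.13 to 1.26. The mean log2 ratio was 0.24 ± 0.0564 (SD, n = 11), a ratio of 1.18, higher in 11 of 11 animals (two-sided exact permutation of signs over animals, p = 0.000977, the smallest that 11 animals allow). On each of the 20 chromosomes the ratio was above 1, from 1.05 on chromosomes 8 and 11 to 1.45 on chromosome 10. The difference depended on the level. Median reads per position were 187 at 80% to 85% against 186 at 15% to 20%. They were 189 at 85% to 90% against 187 at 10% to 15%, so nearly equal. At 90% to 95% they were 213, against 190 at 5% to 10%, and above 95% they were 264, against 181 under 5%.

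The difference in depth grew with the number of measured CpG positions. In regions of 40 to 49 positions the ratio was 1.03 on average, with 0.983 in the lowest animal, and was above 1 in 10 of 11 animals. It was 1.13 with 50 to 59 positions, 1.24 with 60 to 79 and 1.32 with 80 or more, above 1 in all 11 animals each time. Reads per position stayed between 221 and 233 over these classes in the methylated regions and went from 219 to 166 in the unmethylated ones. The ratio was 1.31 within 5 Mb of a chromosome end and 1.24 farther in, both above the 1.18 of all regions together. Depth was lower near the ends, at 209 reads against 246 in the methylated and 159 against 199 in the unmethylated regions. Methylated regions lay near ends more often, so the ratio of 1.18 also reflects where the regions lie.

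**Figure D4:**
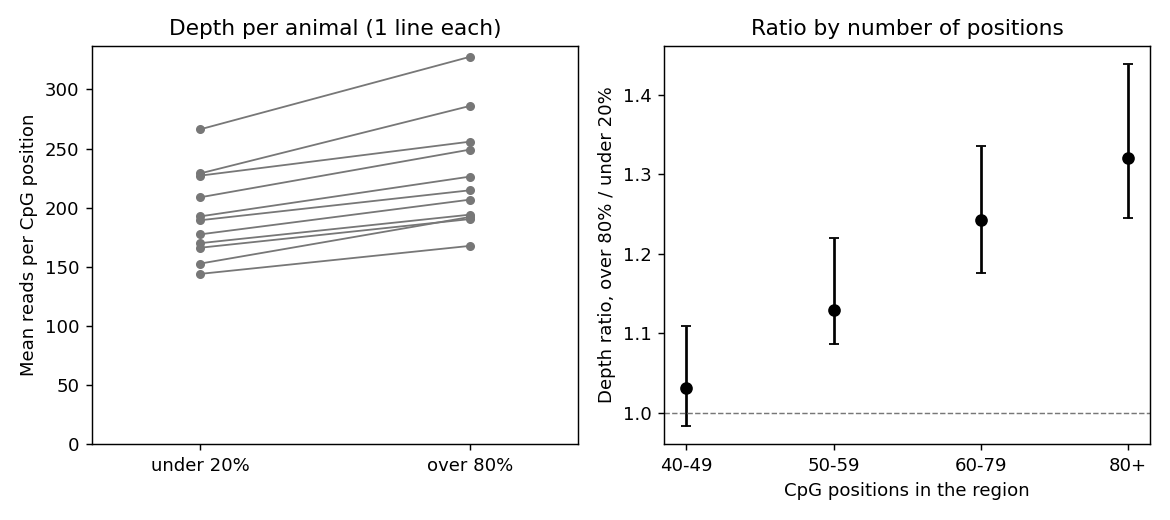
Left, mean reads per CpG position in regions under 20% and above 80% methylated, 1 line per animal. Right, the ratio of the 2 depths by number of CpG positions in the region, with the mean over 11 animals as a point and the lowest and highest animal as bars. The mean ratio goes from 1.03 at 40 to 49 positions to 1.32 at 80 or more.

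The spread between animals was small and depended on the scale in which it was read. The median SD over 11 animals was 1.43 percentage points in the methylated and 0.686 in the unmethylated regions, and 2.80 in the sparser regions above 80%. On the logit scale the order turned, with 0.173, 0.187 and 0.307. At levels equally far from their limit the methylated and unmethylated regions were much alike: 2.75 points at 80% to 85% against 2.41 at 15% to 20%, 1.97 against 1.84, 1.14 against 1.08, and 0.616 above 95% against 0.557 under 5%. Counting error alone would give a median SD of 0.286 points in the methylated regions, and the SD was above its counting error in 100% of them. Copies made by PCR are not told apart in these counts, so counting error is understated.

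Of the methylated regions, 231 (9.89%) had a range over 10 points between the lowest and the highest animal, against 2.58% of the unmethylated and 43.5% of the sparser regions above 80%. Methylated regions within 1 Mb of a chromosome end had a median SD of 1.56 points and those beyond 20 Mb 1.32. The unmethylated regions had the same order, with 0.773 and 0.671. The median level of the methylated regions was lower near the ends, at 90.1% against 91.8%. Near the ends the median depth was also lower, 184 against 219 reads per position. In the 231 wide regions, the lowest animal was animal 5, 6 or 8 of cohort 14 in 42, 41 and 41 cases, and the highest was animal 6 in 43.

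**Figure D5:**
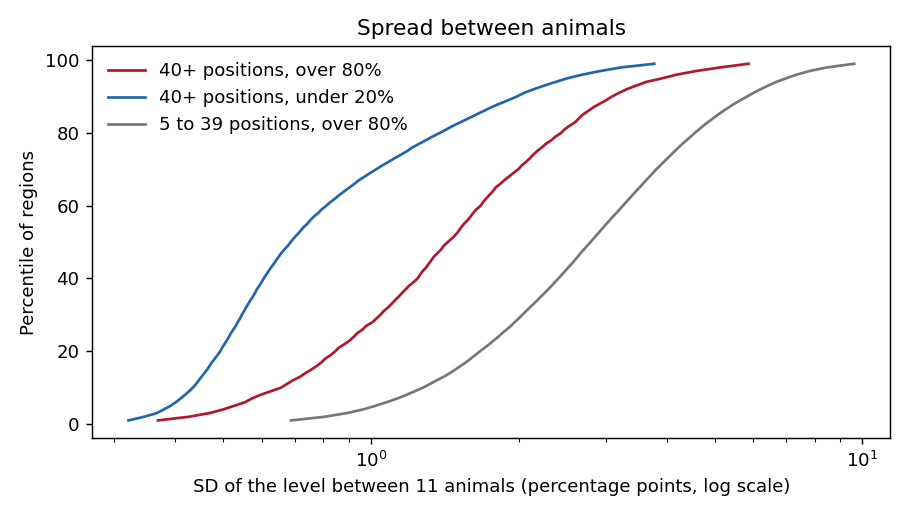
Percentile of regions (vertical axis) by the SD of the level between 11 animals in percentage points (horizontal axis, log scale), for CpG-rich regions above 80%, CpG-rich regions under 20% and sparser regions above 80%. The curves cross 50% at 1.43, 0.686 and 2.80 points.

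Libraries 3, 6, 7 and 8 of cohort 14 stood apart from the rest. In them 15.9% to 18.9% of positions in the methylated regions had the lowest unmethylated count, against 7.88% to 11.7% in the other 7, and each animal's median distance from the median of all animals was 0.833 to 0.990 points against 0.713 to 0.857. Without these 4 the median SD in the methylated regions was 1.30 points and the share within 5 Mb of an end 48.5%. Their part in the spread of single regions was not tested.

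The widest methylated region split the animals into groups. On chromosome 4, 41 positions from 112608670 to 112609656 were at 91.8% to 95.1% in 7 animals, at 70.2%, 68.8% and 71.0% in animals 1, 4 and 5 of cohort 14, and at 52.7% in animal 3 of cohort 14. The SD was 15.0 points (n = 11). In animal 3, 34 of the 41 positions lay over 20 points below the median animal, so the low positions ran along most of the region. On chromosome 15, 60 positions from 77059356 to 77060355 were lowest at 66.4% in animal 6 and 68.7% in animal 8 of cohort 14, with a median of 88.2% and a highest of 93.7%. On chromosome 4 near its low-coordinate end, 53 positions from 3813157 to 3813898 were at 59.9% in animal 6, with a median of 83.6% and a highest of 91.8%. Animals 3, 6 and 8 are among the 4 libraries that stood apart, and animals 1, 4 and 5, also low in the first region, are not.

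The 3 regions with the lowest SD were all above 95%, as were 172 of the methylated regions. On chromosome 19, 95 positions from 1797988 to 1798917 were at 95.5%, 95.8% and 96.03% in the lowest, the median and the highest animal. On chromosome 16, 93 positions from 20590787 to 20591769 were at 95.8%, 96.1% and 96.5%. On chromosome 15, 59 positions from 11654159 to 11655136 were at 95.5%, 96.03% and 96.3%. Their SDs of 0.167, 0.226 and 0.251 points compare with 0.123, 0.116 and 0.110 from counting error.

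No methylated region was related to the later ethanol value at the threshold. The comparison asked whether methylation before drinking went with the ethanol value of 6 months. Of the 2335 regions, 2163 with a pooled level up to 95% entered a fit over 119749 regions of all kinds, and the 172 above 95% did not. In a moderated quasi-binomial logistic model with cohort as a covariate, 0 of 2163 had a Benjamini-Hochberg adjusted p under 0.05, as in all regions (0%). An unadjusted p under 0.05 was found for 74 (3.42%), 51 with a positive and 23 with a negative slope, against 2.92% of all regions tested. Limma on logit methylation gave 0 after adjustment and 35 (1.62%) before, against 3.38% of all regions, and edgeR gave 0 and 38 (1.76%), against 3.69%. The share before adjustment was thus above that of all regions in the moderated model and below it with the other tools. Without animal 9 of cohort 14, which has the highest ethanol value, 138 (6.38%) had an unadjusted p under 0.05, against 5.36% of all regions. Slopes were above 0 in 55.4% of the methylated and 54.2% of all regions, with medians of 0.0889 and 0.125 points per unit of the ethanol value. The median standard error of a slope was 0.637 points per unit in the methylated regions and 1.53 in all.

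The smallest p belonged to the repeat at 116 bp on chromosome 15 from 1649149 to 1649790. Levels were 86.7% ± 1.99 (SD, n = 6) in the animals with an ethanol value under 3 and 90.4% ± 1.39 (SD, n = 5) in the others, at most 89.10% and at least 89.03%, so the classes just overlapped. Its slope was 2.96 ± 0.510 points per unit (SE), and its adjusted p in the moderated quasi-binomial model was 1 (0.213 at the lowest over the alternatives and the named regions). Next among positive slopes came chromosome 14 from 5746045 to 5747042, with 88.7% ± 3.49 and 92.7% ± 2.47 in the same classes, and chromosome 7 from 6790240 to 6791238, with 78.7% ± 2.89 and 83.01% ± 2.31. Among negative slopes the first was chromosome 18 from 3665526 to 3666499, with 91.6% ± 1.43 and 89.5% ± 1.57. A region on chromosome 9 from 1678373 to 1679351 had 91.04% ± 1.34 and 88.6% ± 2.16. One on chromosome 10 from 99154680 to 99155196 had 93.5% ± 1.004 and 92.3% ± 1.63. The classes overlapped in all 6 regions, which were chosen for small p-values and so overstate what other animals would show.

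No relation of the mean level over the methylated regions to the ethanol value was detected with these 11 animals. Over 11 animals, Pearson's r was 0.417 with a permutation p of 0.201, also after Benjamini-Hochberg adjustment over the 2 relations computed. Spearman's rho was 0.418, with a permutation p of 0.202 before and after adjustment. For the unmethylated regions r was 0.551 (permutation p of 0.0778 before and 0.156 after adjustment) and rho 0.636 (0.0396 before and 0.0792 after, by permutation). Without the 2 animals farthest from the median ethanol value, animals 4 and 9 of cohort 14, r in the methylated regions was 0.294 (exact permutation p = 0.436), and within cohort 14 it was 0.378 (exact permutation p = 0.315). Without the 4 libraries that stood apart it was 0.582 (exact permutation p = 0.172), and rho was 0.714 (exact permutation p = 0.0881). In the unmethylated regions without these 4, r was 0.722 (exact permutation p = 0.0641) and rho 0.893 (exact permutation p = 0.0123). The p-values of these smaller sets were not adjusted, and the set without 4 libraries was added after seeing the data.

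Cohorts were not separated by these regions either. The mean level was 89.7% and 89.8% in the 2 animals of cohort 10 and 90.01% ± 0.229 (SD, n = 9) in cohort 14, a difference of -0.237 points (two-sided exact permutation p = 0.218, with 0.0182 the smallest that 2 against 9 allow). In the moderated model 0 of 2163 regions differed after adjustment, as in all regions (0%), and 84 (3.88%) had an unadjusted p under 0.05, 15 higher and 69 lower in cohort 10, against 2.47% of all regions. Limma gave 0 after adjustment and 36 (1.66%) before, against 3.66% of all regions, and edgeR gave 0 and 38 (1.76%), against 3.80%, so here too the order turned with the tool. The lowest Benjamini-Hochberg adjusted p of a methylated region over the alternatives was 0.0658, in edgeR's test. Least-squares differences, cohort 10 minus cohort 14, were above 0 in 42.4% of the methylated and 48.5% of all regions. Their medians were -0.198 and -0.0809 points, with median standard errors of 1.19 and 2.87. The split of small p-values by direction is not given for all regions.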

How the data were processed

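The authors deposited methylated and total read counts per CpG position as whole numbers, not normalized, on chromosomes 1 to 20 of a build not given in the sources used here. FastQC and Bismark are named in the submitters' processing notes, and libraries came from the SureSelect XT Human Methyl-Seq kit, per the labels' protocols. Of the columns, 11 matched a sample and 5 matched none and were not used. The lowest methylated and unmethylated counts were both 1 and the lowest total 12, as would follow from 1 being added to each count. They were used as deposited, and every position passed a coverage minimum of 10.

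Regions of 5 or more positions pooled at 5% to 95% were fitted by quasi-binomial logistic regression on the ethanol value and cohort, with dispersions moderated by limma and p-values adjusted over all regions by the Benjamini-Hochberg method. Slopes in points came from least squares. On simulated data for the ethanol comparison (119749 regions), 14%, 62%, 90% and 96% of 50 regions were called at logit slopes of 0.25, 0.5, 1 and 1.5, and 8 unchanged regions were called. The simulated regions all had the same dispersion, the median of the regions fitted. The changed ones were drawn from regions of all kinds. These shares therefore do not give the recovery in the methylated CpG-rich regions, which was not simulated. Chromosome ends were the first and last measured positions. Repeats needed 20 positions that could be followed. The moderation and the edgeR and limma alternatives ran in R 4.3.3 with edgeR 4.0.16 and limma 3.58.1, and all else in Python 3.11.15 with pandas 2.3.3, scipy 1.17.1 and numpy 2.4.6.

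The regions named were the extremes in number of positions, SD, gap to an unmethylated region, repeated spacing, chain length and p for the ethanol value, and those next to 80%. Members, rules and tests were chosen with earlier results of these data known. Planned matching to promoter sequences and gene lists was not run, since neither gene positions nor sequence of the build of the files were used here.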

Additional observations from a re-analysis of the deposited data

Results flagged for a closer look

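Among the 9 animals of cohort 14, 37 sets of values were examined (mean levels, the depth ratio and the named regions). In 2 of them an animal lay far from the others, close to the rate of about 1 in 20 sets that chance gives. Both were low levels in animal 8. In the repeat at 52 bp on chromosome 10 from 99262737 to 99263721, animal 8 was at 90.1% and the other 8 at 92.04% to 93.99%, while animal 2 of cohort 10 was at 90.6%. In 41 positions on chromosome 19 from 14999616 to 15000458, just inside the boundary of 80%, animal 8 was at 75.8% and the other 8 at 79.5% to 81.3%. Animal 8 is 1 of the 4 libraries that stood apart by their lowest unmethylated counts. Its part in these values was not tested.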

How the results depend on the processing

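The number of methylated CpG-rich regions depends on where the limits are set: 4898 with 30 or more positions, 613 with 60 or more and 1360 above a level of 90%. The median SD between animals was then 1.62, 1.21 and 1.07 points, 1.64 above a level of 70%, and 1.30 without the 4 libraries that stood apart, which was added after seeing the data. The share within 5 Mb of an end was 42.3% with 60 or more positions, 43.2% above 90% and 50.7% with positions 1 bp apart merged. Within 2 Mb it was 32.5% and within 10 Mb 58.8%. The share within 5 kb of an unmethylated region was 11.1% with 30 or more positions, 6.69% with 60 or more and 8.43% with a coverage minimum of 30. Within 1 kb it was 1.28% and within 20 kb 37.6%. With 33.3% of the positions following at the best distance, 4.28% were repeated. Each of these takes other regions, distances or animals, and beyond that the cause was not tested. Without 1 animal in turn, counts were 2328 to 2348, shares near ends 48.4% to 48.6%, SDs 1.39 to 1.45 points and r with the ethanol value 0.340 to 0.540. The depth ratio kept its direction and its side of 0.05 in 23 of 23 alternatives. The counts of methylated regions related to the ethanol value and differing between cohorts were 0 in all 19 and 16 alternatives run. In 2 of the 16, cohort 10 is left with 1 animal, which is assumed to vary like those of cohort 14. In edgeR's test 31 and 41 regions of other kinds passed. The slopes of the 6 named regions kept their sign in 114 of 114 fits and passed in 0. Since the 6 were chosen for small p-values in these same data, the kept signs are not separate support. Nor are these fits, or the 19 ethanol alternatives, all separate. Leaving out either animal of cohort 10 gave the same ethanol slopes as cohort 14 alone. Fitting regions of every level gave the same slopes as the main fit. No paired analysis was possible because replicates were numbered in accession order and no label pairs animals across cohorts.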
